A study of Homo sapiens with 28 samples.

Results

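The data are the acetylation of lysine 27 of histone H3 (H3K27ac), mapped by chromatin immunoprecipitation sequencing (ChIP-seq) in the bone marrow of 8 mice, which are 8 of the 28 samples of the series. They were chosen by their labels: every mouse sample made with the H3K27ac antibody. The 3 WT mice (WT1, WT2 and WT3) carried the floxed alleles Ezh2(fl/fl) and Runx1(fl/fl) with Rag1(+/+) and Flt3(+/+), so nothing in their genotype would delete the floxed exons. The 5 DKOITD mice (DKOITD48, DKOITD52, DKOITD53e, DKOITD83 and DKOITD185) carried the same floxed alleles with Rag1(Cre/+) and Flt3(ITD/+). Both groups were C57BL/6, and the labels used here give no age. Rag1 drives the Cre recombinase in lymphoid-primed cells and their progeny, and the internal tandem duplication (ITD) of Flt3 keeps this cytokine receptor signalling without its ligand. Before fixation WT marrow was enriched with CD117 beads, which bind Kit, whereas the labels call the DKOITD samples total marrow. Genotype and cell preparation therefore cannot be told apart in any comparison here. The series title places the study in leukaemia that starts in early thymic progenitors with mutated Ezh2 and Runx1.

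Acetylation of H3K27 is written by CBP and p300 and marks active promoters and enhancers. It shares its lysine with the trimethylation that EZH2 writes at silenced genes, so one nucleosome tail cannot carry both. Broad stretches of H3K27ac are known to lie over genes that define a cell's identity, such as granule genes in granulocytes and MHC class II genes in antigen-presenting cells. RUNX1 is a transcription factor that binds many blood enhancers.

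The 8 libraries held 6515614 to 11458360 fragments after duplicate removal. Every WT library (at most 7072997) was shallower than every DKOITD library (at least 9435546), so depth goes with genotype as well. The authors' peak calling set the WT libraries against 1 input (WT1) and the DKOITD libraries against another (DKOITD48). No Y-linked gene of 4 checked carried H3K27ac in the 3 WT mice and DKOITD83, and 3 or 4 of them did in the other 4 DKOITD mice, so sex was also not balanced. DKOITD48, DKOITD53e and DKOITD83 stand apart, with 13405, 8825 and 9112 peaks against 14326 to 22799 in the other 5 libraries. Their effect on the results is given beside each comparison.

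The extent of H3K27ac and its place relative to genes were compared first. Territory, the length of genome under the merged peaks of a library, was 29.7, 16.8 and 21.2 Mb in WT1, WT2 and WT3. It was 13.1, 20.4, 7.03, 7.46 and 23.8 Mb in DKOITD48, DKOITD52, DKOITD53e, DKOITD83 and DKOITD185. The groups overlapped, since DKOITD52 and DKOITD185 lay among the WT mice. The difference of -8.21 Mb did not pass the test (two-sided exact permutation p = 0.179, where the smallest possible over 56 assignments is 0.0357), and without the 3 libraries that stand apart it was -0.462 Mb. All later values by mouse are listed in this same order.

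The group means differed less in territory near genes than in territory far from them. Within 2.5 kb of a gene end the WT mean was 12.04 Mb ± 2.07 (SD, n = 3), and the DKOITD mean was 8.96 Mb ± 3.37 (SD, n = 5). Further away, where enhancers lie, the means were 10.5 Mb ± 4.54 (SD, n = 3) and 5.39 Mb ± 4.23 (SD, n = 5). The share of territory further than 2.5 kb from any gene end was 52.3%, 39.9% and 44.1% in WT mice and 32.1%, 41.2%, 22.1%, 22.6% and 46.6% in DKOITD mice. That difference, -12.5 percentage points, did not pass the test (exact permutation p = 0.179), and it was -1.49 points without those 3 libraries. Ordered by this share, the 8 libraries stood in the same order as by territory. With the 8825 strongest peaks of each library the groups did not overlap, and the difference was -5.04 points (exact permutation p = 0.0357, the smallest possible).

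**Figure D1:**
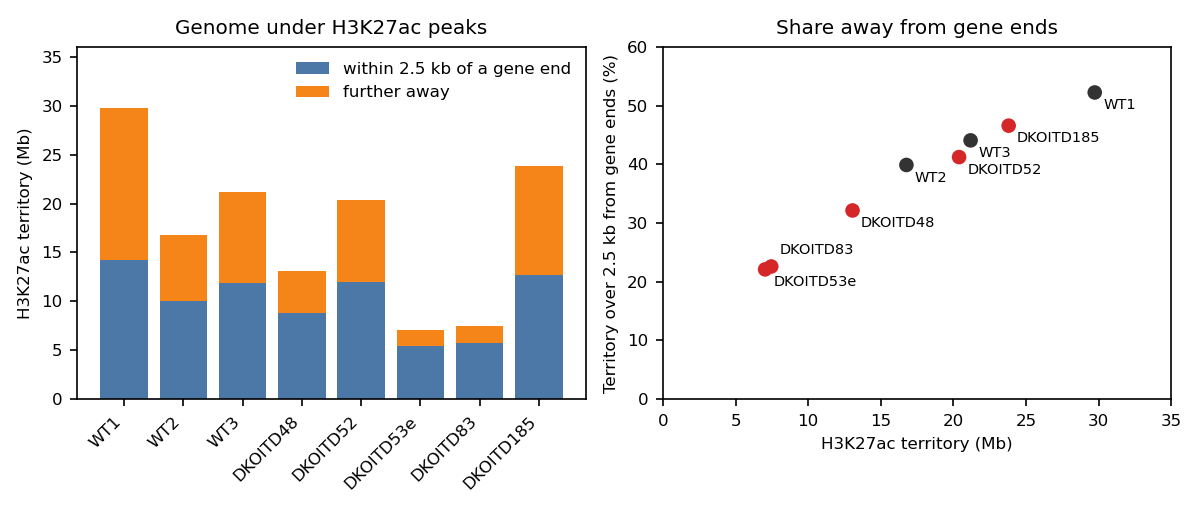
H3K27ac territory of each mouse in Mb, split at 2.5 kb from a gene end (left, stacked bars), and the percent of territory further away against territory (right, 1 point per mouse, black for WT and red for DKOITD). DKOITD48, DKOITD53e and DKOITD83 have the smallest territories, 7.03 to 13.1 Mb, and the lowest shares away from gene ends, 22.1% to 32.1%.

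The mice also differed in which sequence was marked. The Jaccard index of 2 libraries, the shared length over the joint length, was 0.474 to 0.548 between WT mice. Between DKOITD mice it ran from 0.278 (DKOITD53e and DKOITD185) to 0.606 (DKOITD53e and DKOITD83), with 0.591 for DKOITD52 and DKOITD185. Between a WT and a DKOITD mouse it was 0.206 to 0.473. Of the small territories of DKOITD53e and DKOITD83, 94.4% and 95.5% lay inside that of DKOITD52, and 95.3% and 96.9% inside that of DKOITD185. Of the territory of DKOITD48, 86.0% and 89.4% lay inside these 2 libraries. DKOITD53e and DKOITD83 also lay to 89.3% and 89.7% inside WT1, so the overlap of the small libraries was not limited to DKOITD mice.

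The second comparison asked which genes carried more or less H3K27ac at their ends. The value is the length in kb that peaks covered within 5 kb of either end of a gene, and a value of 0 means that no peak was called there, not that the mark was absent. Of 21887 protein-coding genes, 11291 had a peak in at least 3 of 8 libraries and were tested with limma. In DKOITD marrow 500 genes fell, which is 4.43% of those tested, and 65 rose, which is 0.576% (adjusted p under 0.05). The groups of mice did not overlap for 496 of the 500 and for 65 of the 65. These genes were called from the same values, so that separation adds no support. The share over all tested genes is not given here. Of the 500, 89 had no peak in any DKOITD mouse, and 40 of the 65 had none in any WT mouse. Such genes passed the filter only through the other group, and the group at 0 has no spread. The median difference over all tested genes was -0.328 kb, so the mean of the 5 DKOITD mice was lower at most of them. Without DKOITD48, DKOITD53e and DKOITD83 this did not hold among genes with a limma unadjusted p under 0.05, of which 626 were lower and 957 higher. With each library's territory as a covariate the median was 0.0109 kb, and 441 genes fell and 551 rose. Of the first calls, 398 of the 500 and 65 of the 65 were made again in that fit.

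The number of genes that fell changed when single libraries were left out. The filter of at least 3 libraries was kept, so without a WT mouse no gene lacking a DKOITD peak could be tested. Among the 40 named below with a fall, 12 were not tested without WT1. The number that fell was 102 without WT1, 171 without WT3, 184 without DKOITD48, 215 without DKOITD53e and 201 without DKOITD83, and 22 without those 3 DKOITD mice together. The number that rose was 9 without WT1, 28 without WT2, 6 without WT3 and 29 without DKOITD48. It was 66 without the 3 small libraries together, and 10 of these were among the 65. With only DKOITD52 and DKOITD185 left, the 40 of the 65 rises that had no WT peak could not be tested there. Of the 40 genes with a fall at their ends that are named below, 7 passed without the 3 small libraries: Ngp, Camp, G0s2, Tal1, Car2, Map3k20 and Abtb1. Of the 12 named genes with a rise, 8 did, and the other 4 (H2-Aa, Irf8, Nrp1 and Rnd3) were not tested there. Without WT1 or WT3, 2 or 3 of the 12 passed, and Cd74 and H2-Ab1 were among them both times. With the 8825 strongest peaks of each library, 216 of the 500 and 37 of the 65 were called again. With stricter peaks (−log10 q of at least 5), 43 and 11 were. Of the 12 named rises, H2-Ab1 and Klf4 passed with these stricter peaks. H2-Aa, H2-Eb1, Cd74, Irf8, Cd83, Tlr9 and Cmtm3 did not, and Nrp1, Rnd3 and Mob3b were not tested.

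**Figure D2:**
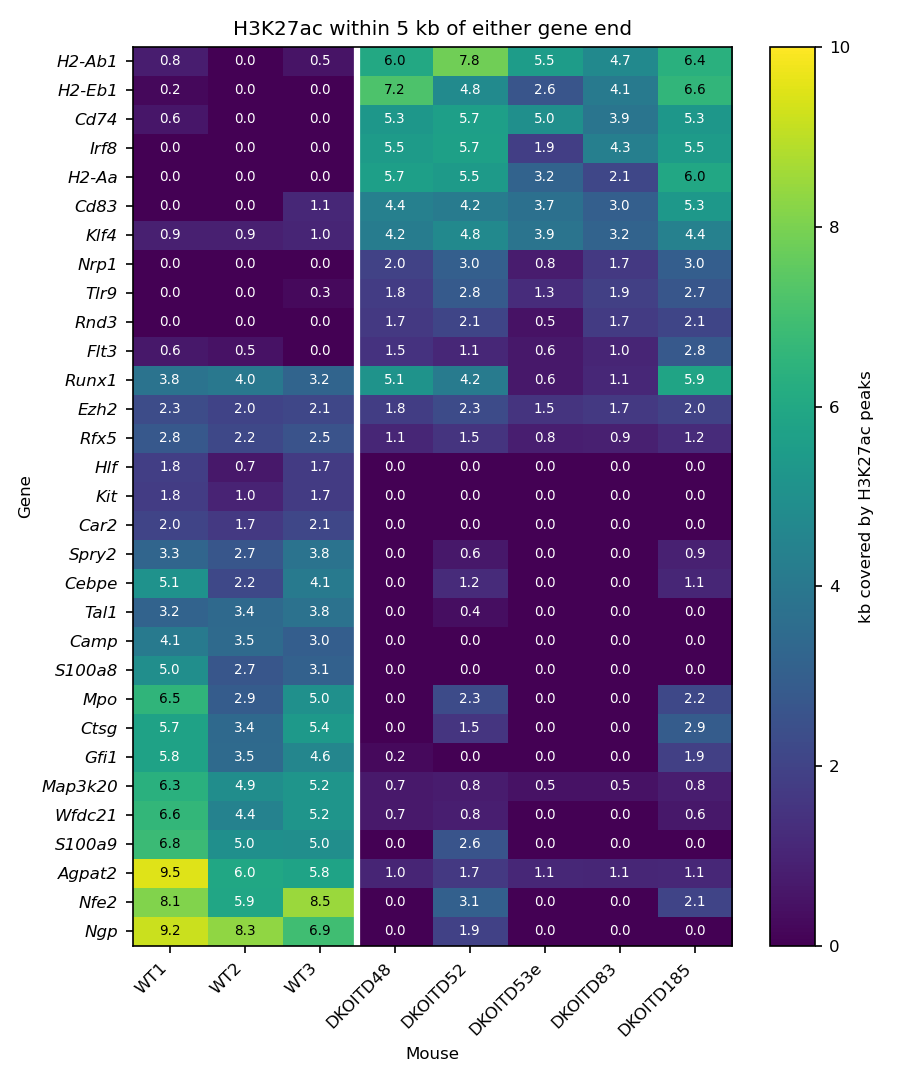
Length in kb covered by H3K27ac peaks within 5 kb of either end of each named gene (rows, ordered by the difference of group means) in each of the 8 mice (columns, white line between WT and DKOITD). From H2-Ab1 to Klf4, every DKOITD mouse has at least 1.86 kb and no WT mouse has more than 1.10 kb. Ngp and S100a9, near the bottom, are high in WT mice and at 0 in DKOITD48, DKOITD53e and DKOITD83. Not all genes there are at 0 in these mice, and Agpat2 has 1.04, 1.12 and 1.06 kb in them.

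The largest rises were at genes of antigen presentation by MHC class II. H2-Ab1 (mm10 chr17:34263227-34269418), the beta chain of the class II molecule I-A, was covered by 0.79, 0 and 0.531 kb in the WT mice and by 6.03, 7.83, 5.52, 4.73 and 6.36 kb in the DKOITD mice. Every DKOITD mouse stood far above every WT mouse, with 0.44 kb ± 0.403 (SD, n = 3) against 6.09 kb ± 1.15 (SD, n = 5), a rise of 5.65 kb (SE 0.766, adjusted p = 0.00456). H2-Aa (chr17:34282744-34287823), its alpha chain, had no peak in any WT mouse and 5.66, 5.45, 3.2, 2.15 and 6.0 kb in DKOITD mice, a rise of 4.49 kb (SE 0.882, adjusted p = 0.0227). H2-Eb1 (chr17:34305867-34316674), the beta chain of I-E, had 0.213, 0 and 0 kb against 7.19, 4.78, 2.62, 4.08 and 6.59 kb, a rise of 4.98 kb (SE 0.968, adjusted p = 0.0217). Cd74 (chr18:60803849-60812652), the invariant chain that guides class II molecules to the endosome, had 0.623, 0 and 0 kb against 5.28, 5.65, 5.0, 3.89 and 5.3 kb. Its rise was 4.81 kb (SE 0.539, adjusted p = 0.00198), and its window also holds an end of Tcof1. These 4 genes were high in the 3 DKOITD mice with small territories too.

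Of the 14 genes of the class II list, 13 were tested, 4 rose and 1 fell. The list's median difference was 0.327 kb, beside -0.328 kb over all tested genes. The member that fell was Rfx5, a factor that binds class II promoters, with 2.75, 2.18 and 2.54 kb against 1.06, 1.49, 0.831, 0.876 and 1.22 kb, and it fell by 1.4 kb (SE 0.27, adjusted p = 0.0213). H2-DMb1, a chain of the peptide-loading molecule H2-DM, was covered in no WT mouse and by 1.44, 2.66, 1.01, 1.13 and 3.74 kb in DKOITD mice, but did not pass the test (adjusted p = 0.0817). H2-DMa, the other chain, was covered in all 8 mice, by 9.98, 7.65 and 7.38 and 6.03, 7.75, 6.72, 5.32 and 10.0 kb (adjusted p = 0.607). Ciita, the coactivator that switches class II genes on, had no peak in any WT mouse and 0, 0.61, 0, 0 and 0.318 kb in DKOITD mice, too few mice to be tested. H2-Aa and H2-Eb1 missed the threshold without WT1 or WT3, and H2-Aa also without DKOITD48. None of the 12 MHC class I genes passed the test, and their median difference was -0.651 kb.

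The largest rise outside the class II genes was at Irf8. Irf8 (chr8:120736358-120756694), a transcription factor of dendritic cell and monocyte precursors, had no peak in the WT mice and 5.48, 5.7, 1.86, 4.32 and 5.5 kb in DKOITD mice. DKOITD53e had the least, and the rise was 4.57 kb (SE 0.842, adjusted p = 0.0172). Cd83 (chr13:43785112-43803133), a surface protein of mature dendritic cells, had 0, 0 and 1.1 kb against 4.36, 4.16, 3.67, 3.02 and 5.34 kb, a rise of 3.74 kb (SE 0.574, adjusted p = 0.00786). Klf4 (chr4:55527137-55532475), a transcription factor of monocytes, was covered in all 8 mice, by 0.861, 0.89 and 1.03 kb against 4.19, 4.76, 3.86, 3.17 and 4.4 kb. Its 3 WT values lay close together, and the rise was 3.15 kb (SE 0.471, adjusted p = 0.00711). Tlr9, the endosomal receptor for unmethylated DNA, had 0, 0 and 0.263 and 1.79, 2.83, 1.26, 1.88 and 2.68 kb, and Nrp1, a neuropilin found on plasmacytoid dendritic cells in humans, had 0 in WT mice and 1.97, 3.03, 0.754, 1.67 and 3.0 kb. The rises were 2.0 kb (SE 0.364, adjusted p = 0.0162) for Tlr9 and 2.08 kb (SE 0.487, adjusted p = 0.0416) for Nrp1.

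Few members of the matching lists passed the test. Over all 11291 tested genes 0.576% rose, and with territory as a covariate 551 genes did. Irf8 was the 1 call among 16 tested genes of the dendritic cell list, whose median difference was 0.724 kb. With territory as a covariate 10 of the 16 rose, and without the 3 small libraries 2 did. The list's summed coverage was 20.2 to 27.7 kb in WT and 15.4 to 62.3 kb in DKOITD mice. Irf4, another factor of dendritic cells, had no peak in WT mice and 1.91, 2.41, 1.22, 0 and 2.1 kb in DKOITD mice (adjusted p = 0.0995). Siglech, a surface marker of plasmacytoid dendritic cells, was at 0 in 7 of 8 mice and was not tested. Klf4 was the 1 call among 11 tested monocyte and macrophage genes (median difference 0.162 kb), and Csf1r, the macrophage growth factor receptor, had 1.08, 0 and 0 kb against 1.44, 3.2, 0.737, 0.907 and 3.86 kb (adjusted p = 0.205). Irf8 was likewise the 1 call among 18 interferon factors and targets, and Cd83 among 5 costimulatory genes. Irf5, an interferon factor of myeloid cells, missed the threshold with 0, 1.14 and 0 kb and 4.66, 5.67, 2.77, 3.85 and 8.78 kb (adjusted p = 0.0506). In the test of regions below, a region at an end of Irf5 rose by 4.81 kb (adjusted p = 0.0325).

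The largest fall was at a granule gene of neutrophils, and other genes of these cells fell too. Ngp (chr9:110419808-110423012), neutrophilic granule protein, was covered by 9.2, 8.33 and 6.93 kb in WT mice and by 0, 1.93, 0, 0 and 0 kb in DKOITD mice. Only DKOITD52 had a peak there, and coverage fell by 7.77 kb (SE 0.703, adjusted p = 0.000639). S100a9 (chr3:90692630-90695721), a subunit of calprotectin, had 6.83, 4.98 and 4.95 kb against 0, 2.6, 0, 0 and 0 kb, and it fell by 5.07 kb (SE 0.722, adjusted p = 0.00552). S100a8, the other subunit, had 4.96, 2.69 and 3.1 kb in WT mice and none in DKOITD mice, and it fell by 3.58 kb (SE 0.443, adjusted p = 0.00288). Camp, the cathelicidin antimicrobial peptide, had 4.09, 3.47 and 2.99 kb and none, and it fell by 3.52 kb (SE 0.261, adjusted p = 0.00029). Wfdc21 had 6.61, 4.44 and 5.2 kb against 0.67, 0.829, 0, 0 and 0.631 kb, and it fell by 4.99 kb (SE 0.506, adjusted p = 0.00139).

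In all, 13 of 20 tested genes of the late neutrophil list fell and none rose, with a median difference of -2.88 kb. The others that fell were Ltf (lactoferrin), Cd177, Retnlg, Itgb2l, Padi4, Chil3, G0s2 and C5ar1, a receptor of complement C5a. Csf3r, the receptor of granulocyte colony-stimulating factor, was covered in every mouse, by 4.08, 3.17 and 3.09 kb against 1.73, 3.99, 0.726, 0.765 and 2.99 kb, and did not pass (adjusted p = 0.296). The list's summed coverage was 55.8 to 106 kb in WT mice and 1.68 to 24.2 kb in DKOITD mice, with DKOITD52 highest. Over all tested genes 4.43% fell. S100a8, Camp, Cd177, Retnlg, Itgb2l and G0s2 had no peak in any DKOITD mouse. They passed the filter only through the WT mice, so they could only be called as falls. Without the 3 small libraries 3 of the 13 passed. In bulk marrow, fewer cells of a type and less of the mark per cell cannot be told apart.

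Outside that list, Trem1, an activating receptor of neutrophils and monocytes, had 6.7, 5.58 and 5.62 kb against 0, 2.73, 0, 0 and 0.901 kb, and it fell by 5.24 kb (SE 0.69, adjusted p = 0.00384). Ncf4, a subunit of the phagocyte NADPH oxidase, had 8.87, 8.17 and 5.92 kb against 0.849, 4.68, 0.774, 0.482 and 3.34 kb, and it fell by 5.63 kb (SE 1.16, adjusted p = 0.027). Genes of the primary granules, which form earlier in the granulocyte line, were lower as well. Mpo (chr11:87793784-87804412), myeloperoxidase, had 6.54, 2.93 and 5.03 kb against 0, 2.3, 0, 0 and 2.15 kb, and it fell by 3.94 kb (SE 0.887, adjusted p = 0.0357). Ctsg, the serine protease cathepsin G, had 5.75, 3.42 and 5.4 kb against 0, 1.54, 0, 0 and 2.89 kb, and it fell by 3.97 kb (SE 0.802, adjusted p = 0.0253). At both genes DKOITD52 and DKOITD185 kept some coverage and the 3 small libraries had none.

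The transcription factors that drive granulocyte maturation were on the same list. Gfi1 (chr5:107716655-107725805) had 5.76, 3.47 and 4.59 kb against 0.237, 0, 0, 0 and 1.9 kb, and it fell by 4.18 kb (SE 0.604, adjusted p = 0.00594), and Cebpe had 5.11, 2.18 and 4.13 kb against 0, 1.23, 0, 0 and 1.08 kb, and it fell by 3.34 kb (SE 0.621, adjusted p = 0.018). Of 11 tested members 5 fell, beside 4.43% of all tested genes, and the median difference was -3.05 kb. The fifth was Ms4a3, which had no peak in any DKOITD mouse and passed the filter only through the WT mice. None of these 5 passed without the 3 small libraries. Elane, neutrophil elastase, showed little coverage in either group, with 1.09, 0 and 0 kb and 0.785, 0, 0, 0 and 0.205 kb (adjusted p = 0.728).

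Genes of stem and progenitor cells formed another group that fell, in marrow that had not been enriched for them. Kit (chr5:75574987-75656722), the receptor on which WT marrow was selected, had 1.77, 1.01 and 1.72 kb in WT mice and none in DKOITD mice, and it fell by 1.5 kb (SE 0.186, adjusted p = 0.00289). Like the other genes with no DKOITD peak, Kit passed the filter only through the WT mice. Tal1 (chr4:115056426-115071755), a transcription factor of stem and erythroid cells, had 3.18, 3.42 and 3.77 kb against 0, 0.374, 0, 0 and 0 kb. Its WT values were close together, only DKOITD52 had a peak, and coverage fell by 3.38 kb (SE 0.228, adjusted p = 0.000287). Hlf, a transcription factor of stem cells, had 1.85, 0.657 and 1.72 kb and none, and it fell by 1.41 kb (SE 0.248, adjusted p = 0.0142). Hoxa9 and Mllt3 also fell, so that 5 of 16 tested members did, against 4.43% of all tested genes, with a median difference of -1.46 kb. Tal1 alone of the 5 passed without the 3 small libraries (Kit adjusted p = 0.0736), and Hoxa9 and Mllt3 did not pass with territory as a covariate. Summed coverage of this list was 30.8 to 48.7 kb in WT mice and 3.33 to 22.2 kb in DKOITD mice. Cd34, Gata2 and Erg, which mark stem and progenitor cells, were nearly without peaks at their ends in both groups and were not tested.

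Some red cell and platelet genes were lower at their ends too. Car2 (chr3:14886269-14900770), a carbonic anhydrase of red cells, had 2.04, 1.67 and 2.11 kb in WT mice and none in DKOITD mice, and it fell by 1.94 kb (SE 0.156, adjusted p = 0.000419). Sptb (spectrin beta) and Hemgn also fell, making 3 of 8 tested erythroid genes, of which Car2 alone passed without the 3 small libraries. Car2 and Sptb had no DKOITD peak and passed the filter only through the WT mice. Of the 26 erythroid genes listed, 14 had no peak in any mouse. Gata1 and Hba-a1, which define red cell precursors, had no called peak in any mouse. Nfe2 (chr15:103248212-103258403), a factor of platelet formation, had 8.1, 5.9 and 8.48 kb against 0, 3.07, 0, 0 and 2.05 kb, and it fell by 6.47 kb (SE 0.939, adjusted p = 0.00598). Its window also holds an end of Hnrnpa1. Zfpm1, the partner of GATA1, and Selp, the adhesion molecule P-selectin, fell as well. That made 3 of 6 tested megakaryocyte genes, beside 4.43% of all tested genes. None of these 3 passed without the small libraries (Nfe2 adjusted p = 0.101). How far these lists moved with the cell preparation was not tested.

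No engineered gene passed the test at its ends. Ezh2 (chr6:47530274-47595270) was covered by 2.31, 2.0 and 2.12 kb in WT mice and by 1.82, 2.28, 1.52, 1.66 and 1.97 kb in DKOITD mice, a difference of -0.296 kb (SE 0.294, adjusted p = 0.544). Runx1 (chr16:92601466-92826074) had 3.8, 4.0 and 3.23 kb against 5.14, 4.18, 0.649, 1.11 and 5.85 kb, with DKOITD53e and DKOITD83 far below the rest and the other 3 DKOITD mice above every WT mouse. The difference was -0.29 kb (SE 1.21, adjusted p = 0.896), and its sign turned when either of those mice was left out. Flt3 had 0.631, 0.505 and 0 kb against 1.46, 1.09, 0.649, 1.05 and 2.78 kb and did not pass (difference 1.03 kb (SE 0.431, adjusted p = 0.194)), though with territory as a covariate it rose by 1.56 kb (adjusted p = 0.0468). Rag1 had no peak in any mouse. Recombination of the floxed alleles cannot be read from coverage at gene ends, so the genotypes were not checked.

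None of 15 enzymes and readers of H3K27 marks passed the test at their ends (median difference -0.483 kb), among them Suz12 (1.97, 1.82 and 2.01 kb against 1.47, 1.64, 1.22, 1.28 and 1.64 kb) and Eed. The 16 C/EBP, RUNX and PU.1 regulators gave no call among 13 tested. Spi1, which encodes PU.1, had 7.84, 5.38 and 7.81 kb against 4.82, 8.78, 3.05, 1.46 and 8.71 kb (adjusted p = 0.583). Of 22 tested genes that respond to FLT3, STAT5 or ERK signalling, 1 fell, a share like the 4.43% of all tested genes. It was Spry2, an inhibitor of ERK signalling. It had 3.27, 2.66 and 3.8 kb against 0, 0.632, 0, 0 and 0.903 kb, and it fell by 2.94 kb (SE 0.34, adjusted p = 0.00214). Dusp6, an ERK phosphatase, was low in the 3 small libraries alone, with 4.9, 4.46 and 4.7 kb against 0.661, 4.46, 0.208, 0.834 and 3.39 kb (adjusted p = 0.132).

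Few lymphoid genes passed the test. Of 10 tested B lineage genes 1 fell, Vpreb1, a part of the surrogate light chain of pre-B cells. It had 5.74, 3.56 and 2.78 kb against 0.64, 0.737, 0.519, 0.66 and 2.07 kb, and it fell by 3.1 kb (SE 0.651, adjusted p = 0.0289), and its window also holds ends of Igll1 and Top3b. Ebf1, a factor of B cell commitment, had no peak in any mouse. Of the 26 T lineage genes 6 were tested and none passed, and Cd3e had no peak in any mouse. No call was made among the 20 tested housekeeping genes, whose median difference was -0.620 kb, or for NK cell genes. Genes of other tissues had no tested member, and their summed coverage was at most 1.86 kb in any mouse.

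**Figure D3:**
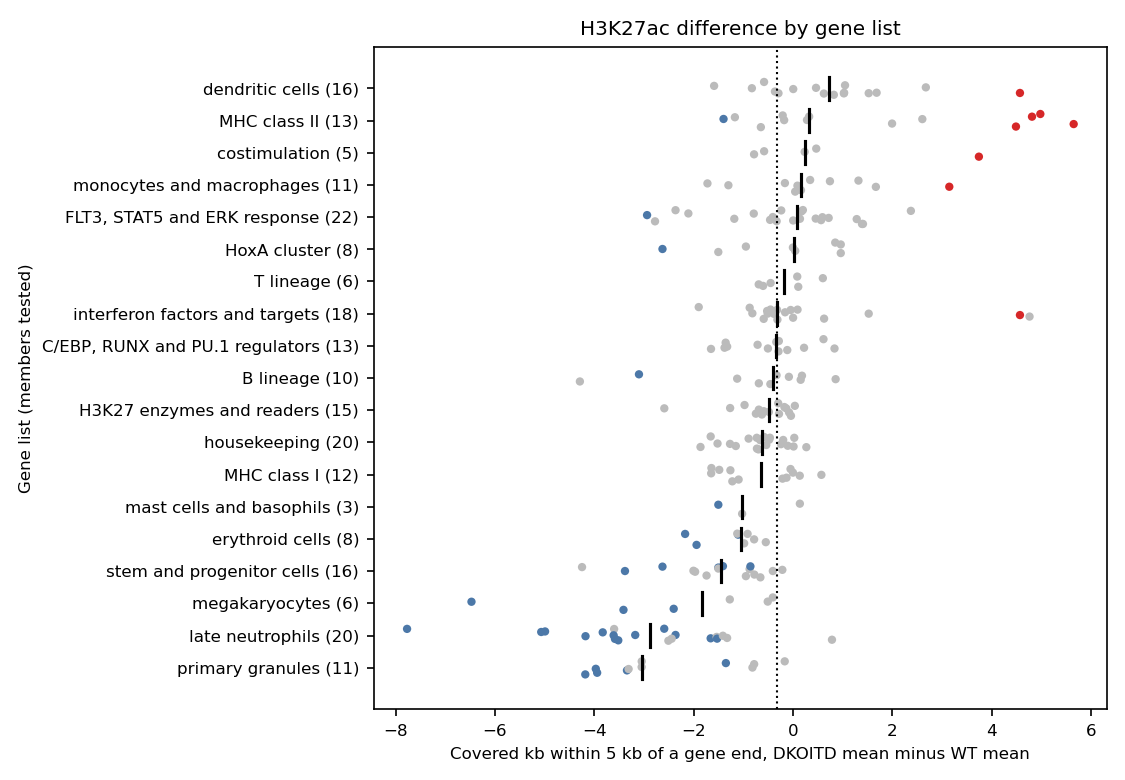
Difference in covered kb within 5 kb of a gene end, DKOITD mean minus WT mean, for the tested members of each list with over 2 tested members (1 point per gene; blue fell, red rose, grey did not pass). Black bars are list medians, which run from -3.05 kb for primary granules to 0.724 kb for dendritic cells, and the dotted line is the median of all tested genes, -0.328 kb.

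Some of the largest differences were at genes on no list. Agpat2, an enzyme of phosphatidic acid synthesis, had 9.51, 5.97 and 5.8 kb against 1.04, 1.67, 1.12, 1.06 and 1.1 kb, and it fell by 5.89 kb (SE 0.835, adjusted p = 0.00538), and its window holds an end of Egfl7. Map3k20, a stress kinase, had 6.34, 4.91 and 5.21 kb against 0.695, 0.78, 0.505, 0.503 and 0.817 kb. A peak of about 1 kb or less remained in every DKOITD mouse, and coverage fell by 4.83 kb (SE 0.411, adjusted p = 0.000451). Gadd45g, a stress sensor, fell by 5.24 kb (SE 0.692, adjusted p = 0.00384) and Abtb1 fell by 5.12 kb (SE 0.597, adjusted p = 0.00219). Sec22c fell by 5.11 kb (SE 1.21, adjusted p = 0.0438) and Gtf2i, a general transcription factor, fell by 4.8 kb (SE 1.14, adjusted p = 0.0437). Among the rises, Rnd3, a regulator of the actin cytoskeleton, had no peak in WT mice and 1.66, 2.1, 0.482, 1.72 and 2.1 kb in DKOITD mice. DKOITD53e was lowest, and the rise was 1.61 kb (SE 0.35, adjusted p = 0.0318). Cmtm3 rose by 1.69 kb (SE 0.413, adjusted p = 0.0482) and Mob3b by 1.54 kb (SE 0.357, adjusted p = 0.0395).

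The third comparison took the peaks further than 2.5 kb from every gene end and summed their length within 50 kb of each gene's ends. Neighbouring genes then share peaks, so several calls can stand for 1 locus. Of 9448 genes tested, 1137 fell, which is 12%, and 15 rose, which is 0.159%. The median difference was -0.578 kb, and with territory as a covariate 944 fell and 1072 rose, of which 837 and 15 were among the first calls. Of the 1137, 722 had no distal peak in DKOITD48, DKOITD53e or DKOITD83, and 301 had none in any DKOITD mouse. The latter passed the filter only through the WT mice. Without DKOITD48, DKOITD53e and DKOITD83, genes with no distal peak in any WT mouse could not be tested. In that fit limma called none in either direction, while an unadjusted p under 0.05 was found for 805 genes lower and 976 genes higher. Without DKOITD48 alone it also called none, while 2056 genes were lower and 89 were higher by unadjusted p, and the smallest adjusted p was 0.0511.

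Leaving out other mice also moved these counts. Without a WT mouse, genes with no distal peak in any DKOITD mouse could not pass the filter. The number that fell was 346 without WT1, 364 without WT3, 633 without DKOITD52, 312 without DKOITD53e and 303 without DKOITD83. The number that rose was 0 without WT1 or WT3, 6 without WT2, 7 without DKOITD52 and 9 without DKOITD53e, and at an unadjusted p under 0.05 it was 40 without WT1 and 29 without WT3.

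The largest distal falls lay at 1 locus on chromosome 8. Around Gsr (chr8:33653238-33698162), glutathione reductase, distal peaks covered 24.3, 17.5 and 20.8 kb in WT mice and 0.715, 3.58, 0.45, 0.436 and 1.79 kb in DKOITD mice. The groups were far apart, with DKOITD52 the highest DKOITD mouse, and coverage fell by 19.4 kb (SE 2.41, adjusted p = 0.00988). Its neighbours Ubxn8 and Ppp2cb share most of these peaks, and Ubxn8 fell by 19.9 kb and Ppp2cb fell by 15.1 kb. Sgms2, a sphingomyelin synthase, had 23.6, 10.9 and 14.1 kb against 0, 3.65, 0, 0 and 0.81 kb, and it fell by 15.3 kb (SE 2.79, adjusted p = 0.0112). Cpa6, a carboxypeptidase gene, had 16.8, 9.26 and 13.2 kb against 0, 0.302, 0, 0 and 0 kb, and it fell by 13 kb (SE 1.75, adjusted p = 0.00988). Around Cdk6, a cell cycle kinase of progenitors, the values were 25.2, 11.1 and 16.8 kb against 2.66, 5.59, 0.433, 2.19 and 10.7 kb, and it fell by 13.4 kb (SE 3.58, adjusted p = 0.0372). DKOITD185 came close to the lowest WT mouse there. Of the other genes with the largest falls, Tbc1d8 fell by 13.9 kb and C1qtnf9 fell by 10.6 kb, with Myh9, Spata13, B3gnt2 and Psma6 between them.

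Among stem and progenitor genes, 6 of 12 tested fell in distal coverage, with a median difference of -2.35 kb. Lmo2, a bridging protein of the TAL1 complex, had 11.6, 6.61 and 9.65 kb in WT mice and 1.76, 3.3, 0.76, 1.53 and 1.87 kb in DKOITD mice, and it fell by 7.45 kb (SE 1.51, adjusted p = 0.0159). Some distal coverage remained in every DKOITD mouse. Around Erg, an ETS factor of stem cells, it was 6.4, 4.11 and 4.86 kb against 0, 0.528, 0, 0 and 0 kb, and it fell by 5.02 kb (SE 0.692, adjusted p = 0.00988). Myb, a factor of proliferating progenitors, had 11.6, 5.46 and 5.13 kb against 0.98, 2.3, 0, 0 and 2.33 kb, and it fell by 6.27 kb (SE 1.56, adjusted p = 0.0301). Hlf, Tal1 and Gfi1b were the others. Hlf and Tal1 had no distal peak in any DKOITD mouse and passed the filter only through the WT mice.

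In the granulocyte lists distal coverage fell at 3 of 11 primary granule genes and 9 of 22 late neutrophil genes, beside 12% of all tested genes, with median differences of -2.01 and -2.14 kb. The former were Gfi1, Cebpe and Hk3, and the latter were S100a8, Camp, Itgb2l, Padi4, Mcemp1, Chil3, G0s2, C5ar2 and Ly6g. As for all distal calls, none of these passed without the 3 small libraries. S100a8, Itgb2l and G0s2 had no distal peak in any DKOITD mouse and passed the filter only through the WT mice. Around Gfi1 it was 5.76, 1.7 and 5.7 kb against 0, 0.242, 0, 0 and 0.213 kb, and it fell by 4.29 kb (SE 0.90, adjusted p = 0.0176). Around Hdc, the histamine-forming enzyme of basophils and mast cells, it was 11.5, 5.46 and 7.05 kb against 0.729, 2.25, 0, 0 and 1.79 kb, and it fell by 7.03 kb (SE 1.44, adjusted p = 0.0163). Suz12, a core subunit of the Polycomb complex that holds EZH2, was the 1 call among 11 tested H3K27 enzymes and readers, a share below the 12% of all tested genes, and did not pass with territory as a covariate. It had 4.66, 1.07 and 1.79 kb against 0, 0.344, 0, 0 and 0 kb, and it fell by 2.44 kb (SE 0.704, adjusted p = 0.0471). Of the interferon targets, Isg15, Ifit1 and Ifit3 fell, each without a distal peak in any DKOITD mouse, and Ifit1 and Ifit3 share the same peaks. The other list members that fell were Vpreb1, Ly6c2 and Gp1bb, a platelet glycoprotein. Gp1bb was the 1 call among 10 tested megakaryocyte genes, and none of 12 tested erythroid genes fell in distal coverage.

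The 15 genes that rose in distal coverage were led by the class II locus. Around H2-Eb1 distal peaks covered 0.779, 0 and 0 kb in WT mice and 14, 11.7, 6.83, 9.27 and 15 kb in DKOITD mice, a rise of 11.1 kb (SE 2.37, adjusted p = 0.0187). H2-Ab1, H2-Aa, H2-Eb2 and H2-Ob, which share peaks with it, rose by 9.48, 9.48, 8.72 and 6.55 kb. With Cd74, 6 of 11 tested class II genes rose, beside 0.159% of all tested genes. Their list had a median difference of 2.503 kb beside -0.578 kb over all genes. The 6 are not separate loci, and H2-Ab1 and H2-Aa had the same values in every mouse. None of the 6 passed without the 3 small libraries, without WT1, without WT3 or without DKOITD48. Around Cd83 the values were 0.383, 1.37 and 0.73 kb against 7.14, 7.12, 5.14, 4.68 and 9.36 kb, a rise of 5.86 kb (SE 1.45, adjusted p = 0.0301). The others among the 12 largest rises were Mob3b and Ifnk, which had the same values (2.64 kb each), Tcof1, which had those of Cd74, Tex22 (2.12 kb) and Klrh1 (1.83 kb). Around Runx1 distal coverage was 13.8, 8.99 and 6.69 kb against 3.65, 5.76, 0, 0.211 and 17 kb and around Flt3 10.16, 5.21 and 7.33 kb against 7.58, 6.12, 1.47, 2.76 and 16.5 kb. Neither passed (adjusted p = 0.44 and 0.906), and in both DKOITD185 lay above and DKOITD53e and DKOITD83 lay below every WT mouse.

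The fourth comparison dropped gene windows and followed each region. Merging the peaks of all 8 libraries gave 32836 regions, and a mouse held a region when its peaks covered at least 10% of it. Regions held by all 8 mice numbered 6521, and 12.1% of these were distal, over 2.5 kb from any gene end. Regions held by all 3 WT and no DKOITD mouse numbered 1117, of which 84.2% were distal. Regions held by all 5 DKOITD and no WT mouse numbered 162, of which 40.7% were distal. A single mouse held 12461 regions, of which 86.6% were distal. The share of distal regions thus fell with the number of mice that held a region, in both genotypes. Another 1003 regions were held by all WT mice, DKOITD52 and DKOITD185 but by none of the 3 small libraries, and 66.6% of these were distal.

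With fewer mice the rule for held regions is looser, so their counts can only stay or rise. Without the 3 small libraries the regions held in DKOITD mice alone numbered 1865. Without WT2 the regions held in WT mice alone numbered 2329, and those in DKOITD mice alone were 244 without WT1, 315 without DKOITD53e and 244 without DKOITD83.

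**Figure D4:**
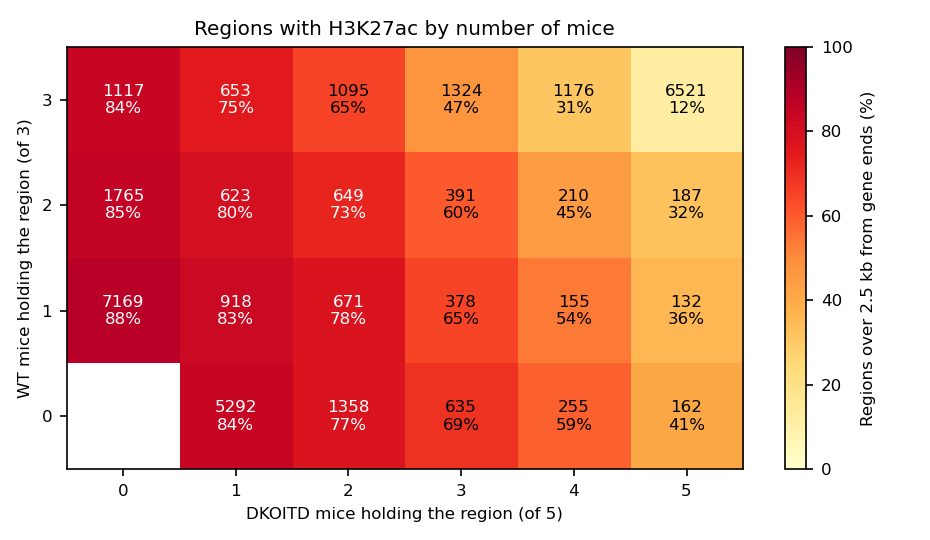
Number of regions with H3K27ac by the number of WT mice (vertical) and DKOITD mice (horizontal) that held them, with the percent of each set that lay over 2.5 kb from any gene end (printed and coloured). The 6521 regions held by all 8 mice are 12.1% distal, and the 1117 held by every WT and no DKOITD mouse are 84.2% distal.

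Tested by covered length, 2094 of 16392 regions fell, which is 12.8%, and 157 rose, which is 0.958%. Of those that fell 70.1% were distal, 879 inside a gene and 588 between genes, and of those that rose 35.7% were distal. Among all tested regions 41.9% were distal. Some list genes without a call at their ends had a called region at a gene end, by the nearest gene or the gene that held it. Among them, such regions rose at Irf5, H2-DMb1 and Batf3 and fell at Csf3r, Dusp6, Tap2, Pgk1 and Vcp. With territory as a covariate 1495 fell and 1331 rose. Without the 3 small libraries 210 fell and 181 rose, of which 209 and 27 were among the first calls. Regions with no peak in any WT mouse could not pass the filter there. The number that fell was 311 without WT1, 1121 without WT2, 444 without WT3, 1315 without DKOITD48, 1350 without DKOITD53e and 1309 without DKOITD83. Without a WT mouse, regions with no peak in any DKOITD mouse could not pass the filter. The number that rose was 20, 43 and 18 without WT1, WT2 and WT3 and 85 without DKOITD48.

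The distal region with the largest fall lay inside Erg, at chr16:95444997-95460500. It was covered by 13.6, 10.5 and 11.7 kb in WT mice and by 0.478, 4.19, 0, 0 and 6.75 kb in DKOITD mice, and it fell by 9.68 kb (SE 1.72, adjusted p = 0.00694). DKOITD185 and DKOITD52 kept part of it. A region inside Gsr at chr8:33658741-33669340 had 10.6, 7.86 and 8.2 kb against 0, 0.866, 0, 0 and 0.234 kb, and it fell by 8.66 kb (SE 0.655, adjusted p = 0.000257). A region inside Igf1r, the receptor of insulin-like growth factor, at chr7:68126915-68135882, had 8.1, 6.69 and 5.9 kb against 0.216, 1.08, 0, 0 and 0 kb, and it fell by 6.64 kb (SE 0.534, adjusted p = 0.000324). Near Mogat2, at chr7:99247860-99254964, the region had 7.11, 4.17 and 5.57 kb in WT mice and nothing in DKOITD mice, and it fell by 5.62 kb (SE 0.558, adjusted p = 0.00056). The others among the 10 largest lay inside Ptpre, Sgms2, Hdac4 and B3gnt2 and nearest to Irf2bp2 and Tagap. At stem and progenitor genes, by the nearest gene or the gene that held the region, 15 of 26 tested distal regions fell and none rose. They lay at Erg, Fli1, Gfi1b, Kit, Lmo2, Myb and Prdm16. Over all 6873 tested distal regions 21.3% fell and 0.815% rose. Whether a region acts on its nearest gene is not known from these data.

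The share that fell was near the 21.3% of all distal regions at the H3K27 enzymes and readers, with 3 of 15 (20%). At the C/EBP, RUNX and PU.1 regulators it was 7 of 41 (17.1%). The former lay at Jarid2, a cofactor of the Polycomb complex, and Kdm6b, a demethylase of H3K27, and the latter at Cebpb, Runx1, Runx2 and Zeb2. Neither list stood out, since housekeeping genes had 18.2% and dendritic cell genes 9.09%.

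The distal region with the largest rise lay between H2-Aa and H2-Eb1, at chr17:34290854-34297526, 3.03 kb from H2-Aa. It had 0.779, 0 and 0 kb in WT mice and 6.48, 6.48, 3.16, 4.9 and 6.05 kb in DKOITD mice, a rise of 5.15 kb (SE 0.793, adjusted p = 0.00357). A region 51.6 kb from Fgd2, an exchange factor for small GTPases, at chr17:29431114-29438639, had 1.77, 0.40 and 1.63 kb against 6.93, 6.73, 6.31, 4.29 and 7.44 kb, a rise of 5.07 kb (SE 0.801, adjusted p = 0.00404). Inside Amz1, at chr5:140730810-140737675, the values were 1.26, 0 and 1.27 kb against 3.58, 6.82, 3.72, 4.02 and 6.84 kb, a rise of 4.15 kb (SE 0.927, adjusted p = 0.0189). A region 13.6 kb from Atf3, a stress-induced transcription factor, at chr1:191196981-191202999, had 0.981, 0.441 and 0 kb against 4.82, 5.73, 3.17, 3.51 and 5.49 kb, a rise of 4.07 kb (SE 0.667, adjusted p = 0.0048). These 4 rose without the 3 small libraries too. The other 6 of the 10 largest lay inside Dusp22, Mob3b and Kif1a and nearest to Map3k1, H2-Ab1 and H2-Eb2, with rises of 2.0 to 2.69 kb.

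The longest distal region held by every DKOITD and no WT mouse lay 200 kb from Runx1, at chr16:93026009-93035447. It had 0.705, 0.346 and 0.536 kb in WT mice, under 10% of its 9.44 kb, and 5.74, 6.33, 2.25, 2.73 and 9.44 kb in DKOITD mice. The difference of 4.77 kb (SE 1.47, adjusted p = 0.0649) did not pass the test, though it did with territory as a covariate. DKOITD185 had the most and DKOITD53e the least.

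The last comparison allowed for unequal territories by ranking. In each library, peaks within 5 kb of each other were joined, and the 500 domains with most covered length were kept, so that each mouse gave the same number. The shortest of the 500 was 3.64 to 6.09 kb in WT mice, 2.74, 1.79 and 1.85 kb in DKOITD48, DKOITD53e and DKOITD83, and 4.10 and 4.93 kb in DKOITD52 and DKOITD185. A gene had a top domain when an end lay inside one or within 5 kb. In all 3 WT and no DKOITD mouse 68 genes had one, in all 5 DKOITD and no WT mouse 25 did, and in all 8 mice 98 did.

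H2-Aa ranked 2, 27, 4, 3 and 14 in the 5 DKOITD mice and was outside the top 500 in every WT mouse. H2-Ab1 ranked 25, 39, 11, 13 and 124, and H2-Eb1 2, 335, 4, 3 and 14, partly in the same domains. Irf8 ranked 12, 40, 433, 27 and 50, Irf5 103, 199, 117, 61 and 63, Cd83 81, 325, 34, 72 and 202, and Cd74 71, 204, 21, 58 and 414. Ahnak, a large scaffold protein, and its neighbour Eef1g ranked 11, 17, 33, 16 and 33. Others of the 25 were Gna13 and Gpr132, a G protein subunit and a receptor of lysophospholipids. Several class II genes were thus among the longest domains also in the mice with few peaks.

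In WT mice the domain at Gsr ranked 5, 2 and 4, and none of the DKOITD mice had it among their 500. The same held for Dennd4a (39, 7 and 12), S100a9 (34, 107 and 69), Ngp (123, 21 and 120) and Nfe2 (216, 106 and 66). Kdm6b ranked 183, 42 and 53, and Wfdc21 and Ncf4 were the other examples from the groups above. Leaving out WT2 raised the 68 to 119, and leaving out DKOITD53e or DKOITD185 raised the 25 to 38 or 41. Without the 3 small libraries the counts were 74 and 103. Leaving out mice loosens the rule, so these counts can only stay or rise, and the first 68 and 25 stay included. Ranking by pileup times length gave 41 and 35, of which 13 of the 41 were among the 68.

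**Figure D5:**
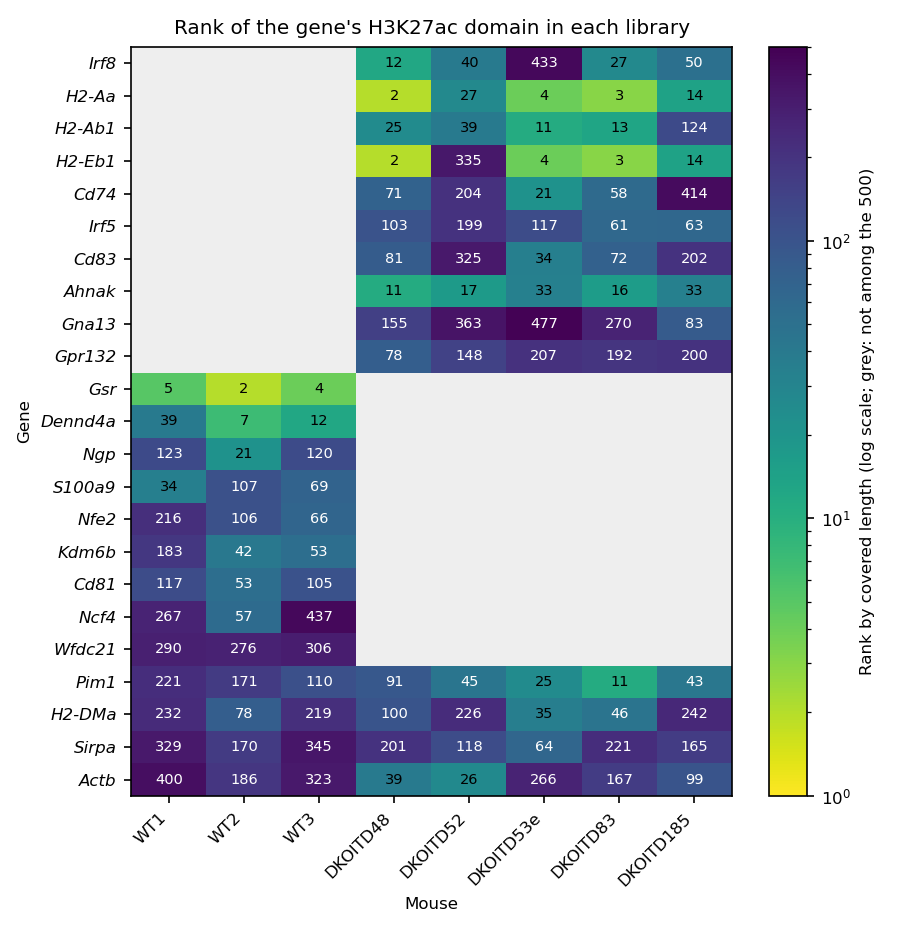
Rank of the H3K27ac domain at each gene (rows) among the 500 longest of each of the 8 mice (columns), by covered length (colour, log scale), with grey where no end of the gene lay within 5 kb of such a domain. H2-Aa ranks 2 to 27 in the 5 DKOITD mice and Gsr 2 to 5 in the 3 WT mice, while Actb is ranked in all 8.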

How the data were processed

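Bowtie2 2.2.5, MACS2 2.0.10 and the build mm10 are named in the submitters' processing notes. Broad peaks of paired fragments were called by the authors with MACS (version 2.0.10.20131216, per the file headers) in each library separately, at a q-value threshold of 0.05. The labels' protocols say that Drosophila chromatin was added and that its reads were not used, so peak lists carry no absolute level. Each deposited peak has its length, a pileup (the signal, or mean fragment coverage), its p-value and q-value as −log10, and a fold enrichment, the ratio of pileup to local background. These are the authors' values, used here only to rank and filter peaks within a library.

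Overlapping peaks were merged within a library. Genes were placed with RefSeq positions on GRCm38.p6, the assembly of mm10. It gives no strand, so both gene ends replaced the planned gene starts, and no sequence or exon was used. Covered kb was tested with limma 3.58.1 in R 4.3.3 (empirical Bayes with a trend on mean coverage, Benjamini-Hochberg adjustment over all tested features), after a filter of a peak in at least 3 of 8 libraries. The steps were tested on simulated data. For territories the test was an exact permutation of the mice, two-sided. Labels do not say how mice were bred or paired, and p-values measure the spread between these 8 mice. A file without a peak gives no depth at that place, so no interval is given for a value of 0. Text names the 12 largest falls and rises per gene test, list members that passed, the engineered genes and Kit, and the 10 largest falls and rises among distal regions. Other list members named with values, and regions at gene ends, were picked with their values known. The samples, the gene lists and the tests were chosen with earlier results of these data known. A few genes are not reported here. Alternatives tried were stricter or equal numbers of peaks, other windows, scales and filters, territory as a covariate, and leaving out mice.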

Additional observations from a re-analysis of the deposited data

Results flagged for a closer look

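Among the 63 values tested over the 5 DKOITD mice, 12 had 1 mouse far from the other 4, by the gap to its neighbour against the range of the group. Chance flags about 1 in 20 groups of normally spread values. Many values here were 0, and 1 mouse above 0 against 4 at 0 is always flagged. The 12 can therefore not be set against that rate. In 10 of the 12 the high mouse was DKOITD52, the DKOITD mouse with the second largest territory. At gene ends DKOITD52 had 1.93 kb at Ngp, 2.60 kb at S100a9 and 0.374 kb at Tal1, each against 0 in the other 4. At Agpat2 it had 1.67 kb against 1.04 to 1.12 kb. In distal coverage it had 3.65 kb around Sgms2 against at most 0.810 kb, and 0.302 kb around Cpa6 and 0.528 kb around Erg against 0. The distal regions inside Gsr (chr8:33658741-33669340), Sgms2 (chr3:131464629-131475351) and Igf1r (chr7:68126915-68135882) had 0.866, 3.42 and 1.08 kb in DKOITD52 against at most 0.234, 0.810 and 0.216 kb. DKOITD185 stood alone at Gfi1 with 1.90 kb against at most 0.237 kb. DKOITD53e stood alone below the rest at Rnd3, with 0.482 kb against 1.66 to 2.10 kb.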

How the results depend on the processing

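No paired analysis was possible because the WT and DKOITD mice share no replicate number. The differences in territory and in share of territory away from gene ends kept their sign under each alternative. Without DKOITD48, DKOITD53e and DKOITD83 together they shrank to -0.462 Mb and -1.49 points (exact permutation p = 1), and with stricter peaks (−log10 q of at least 5) to -3.0 Mb and -3.85 points (exact permutation p = 0.357 and 0.393). Without 1 mouse at a time they ran from -11.1 to -4.62 Mb and from -15.9 to -9.05 points. With equal numbers of peaks the share differed by -5.04 points and passed the test (exact permutation p = 0.0357). In the counts that follow, falls come before rises. Against 500 and 65 genes at gene ends, peaks with a −log10 q of at least 5 gave 65 and 23, no filter gave 168 and 21, and leaving out DKOITD48, DKOITD53e and DKOITD83 together gave 22 and 66. Equal peak numbers gave 456 and 171 (216 and 37 of them among the first calls), log2(kb + 0.5) 369 and 100, and the territory covariate 441 and 551. Against 1137 and 15 genes with distal peaks, the stricter peaks gave 149 and 13, no filter 305 and 2, and leaving out the 3 mice 0 and 0 in limma (805 and 976 at an unadjusted p under 0.05). Equal peak numbers gave 826 and 99 (315 and 6 of them among the first calls), the log2 scale 1130 and 41, the covariate 944 and 1072, and a window of 100 kb 1170 and 5. Against 2094 and 157 regions, the stricter peaks gave 151 and 35, equal numbers 816 and 241, no filter 1280 and 58, the covariate 1495 and 1331, and leaving out the 3 mice 210 and 181. Regions held in WT or DKOITD mice alone, 1117 and 162, were 83 and 84 with stricter peaks, 357 and 290 at equal numbers, and 1865 in DKOITD mice alone without the 3 mice. The latter were 72 when half-covered regions were asked for (at least 50%). Top-domain genes, 68 and 25, were 45 and 11 with 300 domains, 92 and 38 with 1000, 41 and 35 ranked by pileup times length, and 74 and 103 without the 3 mice. Without 1 mouse at a time the falls and rises were 102 to 667 and 6 to 69 genes at ends, 0 to 1551 and 0 to 18 with distal peaks, and 311 to 2524 and 18 to 215 regions. Held regions were 1120 to 2329 and 162 to 315, and top-domain genes 68 to 119 and 25 to 41. Counts of held regions and top-domain genes can only stay or rise when a mouse is left out, so these ranges do not test them. The difference at Runx1 turned positive with stricter peaks (0.516 kb), with the covariate (1.30 kb), without the 3 mice (1.34 kb), and without DKOITD53e (0.394 kb) or DKOITD83 (0.279 kb). It ran from -0.907 to 0.394 kb without 1 mouse at a time and passed in none of these fits. Using the single better covered gene end, chosen after seeing the data, gave 531 and 82 genes. The cause of these changes was not tested, except that fewer mice give fewer degrees of freedom. The filter of at least 3 libraries also removes features with no DKOITD peak once a WT mouse is left out. Without the 3 small libraries it removes features with no WT peak. Peak lists give no depth where no peak was called, which limits every value of 0. The 3 small libraries had 10141181 to 11220484 fragments, more than any WT library, and fewer peaks.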

Other observations

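The genes with a top domain in all 8 mice held much that any blood cell uses. The histone gene clusters on chromosomes 3 and 13 were among the 98, as were Actb and Mcl1, a survival protein of myeloid and lymphoid cells. Immediate early and feedback genes were there too: Junb, Ier2, Dusp1, Zfp36, Per1 and Tsc22d3. So were Brd2, which reads acetylated histones, and the chromatin genes Arid1a, Nsd3 and Setd1b. Pim1, a kinase gene that STAT5 induces, ranked 221, 171 and 110 in WT mice and 91, 45, 25, 11 and 43 in DKOITD mice. Its coverage at gene ends was 7.33, 5.15 and 6.46 kb against 4.82, 8.84, 4.64, 5.95 and 10.3 kb (limma adjusted p = 0.824), so the difference in rank came without a call in covered length. Sirpa, a receptor of myeloid cells, ranked 329, 170 and 345 against 201, 118, 64, 221 and 165. H2-DMa ranked 232, 78 and 219 against 100, 226, 35, 46 and 242, in contrast to the other class II genes with a top domain, which had none in WT mice.

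DKOITD52 and DKOITD185 held 897 regions that no other mouse held, of which 81.9% were distal, with a median length of 1.01 kb. Of these regions 18 had a peak in at least 3 libraries and were tested, and limma called none of them.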
